A study of Mus musculus with 6 samples.

Results

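The mitochondrial ribosomal protein genes of the adult mouse prefrontal cortex were taken as all genes whose symbol is Mrpl or Mrps followed by a number and, in some, a letter. The rule found 78 genes of the 18160 in the table, 49 of the large subunit (Mrpl) and 29 of the small subunit (Mrps) by symbol. All 78 were protein-coding and all 78 passed the filter for testing, a mean of at least 10 normalized counts over the samples. The series holds RNA sequencing of prefrontal cortex from C57BL/6J mice at postnatal day 56, with 3 samples of wild-type mice and 3 samples of mice heterozygous for a Cyfip2 mutation. The type of mutation is not described in the labels, and no other allele or treatment is named for either group. The design compares expression in this tissue with and without a heterozygous mutation of Cyfip2, a subunit of the actin-regulating WAVE complex. Whether each sample is a different animal is not in the labels, so p-values measure only the spread between these samples, which may be technical.

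Mitochondria make the few proteins encoded by their own DNA, all of them subunits of the respiratory chain and ATP synthase, on a dedicated ribosome. Its RNAs come from the mitochondrial genome, while every one of its proteins is encoded in the nucleus, made in the cytosol and imported. Many of these proteins descend from bacterial ribosomal proteins and others exist only in mitochondria, and inherited defects in several of them impair respiratory chain assembly and affect the brain. The symbol does not always give the place of the protein. Mrps30 and Mrps18a encode proteins of the large subunit, and Mrps36 encodes a component of the 2-oxoglutarate dehydrogenase complex, so that by structure 51 genes belonged to the large and 26 to the small subunit.

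The implied depth, estimated from the spacing of the lowest values, was 27.1 M to 48.3 M reads per sample, and totals of normalized counts were nearly equal. Cyfip2 itself, the check of the labels, was at 45454, 43174 and 45627 normalized counts in the wild-type samples and at 28356, 28578 and 29567 in the heterozygous samples. It was the target of the mutation, and its heterozygous level was 64.4% of wild type, with an adjusted p of 0.0027 by limma (0.15 when no variance trend was fitted). All listed markers of cortical excitatory neurons (7 genes), of GABAergic neurons (6 genes) and of 8 other cell types or tissues were detected in every sample, the lowest value of any marker being 17.8. Wild-type sample 2 stood apart in markers of oligodendrocytes, whose summed level was 172650.2 there against 123500.5 and 131855 in the other wild-type samples and 120062 to 128699 in heterozygous samples. Below wild type were all 6 oligodendrocyte, 4 of 6 striatal and 4 of 7 excitatory markers, and above it 5 of 6 each of the GABAergic, astrocyte, endothelial and meningeal markers, 4 of 6 of microglia, and 3 of 5 each of blood and thalamus. At an unadjusted p under 0.05 by limma were 2 GABAergic and 2 meningeal markers (higher) and 1 excitatory and 1 striatal marker (lower). Of all genes tested, 2.36% were higher and 2.71% lower at that threshold. Whatever the p, 50.8% of all genes tested were above wild type and 49.2% below it. No listed marker had an adjusted p under 0.05, the smallest being 0.73 by limma. Summed levels did not overlap between genotypes for excitatory markers (214263 to 220554 against 196526 to 211044 in heterozygotes), GABAergic markers (25178 to 28029 against 28612 to 29064) and striatal markers (3498 to 3839 against 3149 to 3272). Such sums weigh abundant genes most. Camk2a, at means of 148999 in wild type and 137736 in heterozygotes, made up most of the excitatory sum, and its groups overlapped. Gene by gene in these lists, groups did not overlap for 1 excitatory and 1 striatal marker (lower) and 2 GABAergic markers (higher). The share of all genes tested without overlap was 10.5%. The part of these cells in the results was not tested. In bulk tissue, fewer cells of a type and less RNA per cell cannot be told apart.

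No mitochondrial ribosomal protein gene passed the test between genotypes. Of 78 genes, 0 had an adjusted p under 0.05 by limma (Benjamini-Hochberg over the 15151 genes tested), where 0.0132% of all genes tested did. At an unadjusted p under 0.05 there were 0 higher genes (2.36% of all genes tested) and 1 lower gene, Mrpl11, which is 1.28% of the family against 2.71% of all genes tested. The median log2 fold change, heterozygous minus wild-type, was -0.016 over the 78 genes and 0.0020 over all genes tested. Below wild type were 45 genes, or 57.7% against 49.2% of all genes tested, and above it 33. The fold changes of the family ran from -0.19 (Mrpl14) to 0.22 (Mrpl23).

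In 73 of 78 genes the fold change was under 1.1-fold in either direction, a share of 93.6% beside 75.7% of all genes tested. The 95% interval of the fold change lay within 1.5-fold in either direction for 77 of the 78, or 98.7%, beside 83.0% of all genes tested. The exception was Mrpl23. The median within-genotype SD on the log2 scale was 0.084 for the family and 0.11 for all genes tested. Mean levels of the family ran from 165 (Mrpl23) to 2303 (Mrpl48) normalized counts while those of all genes tested went down to the filter, so the shares are not matched for level.

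**Figure D1:**
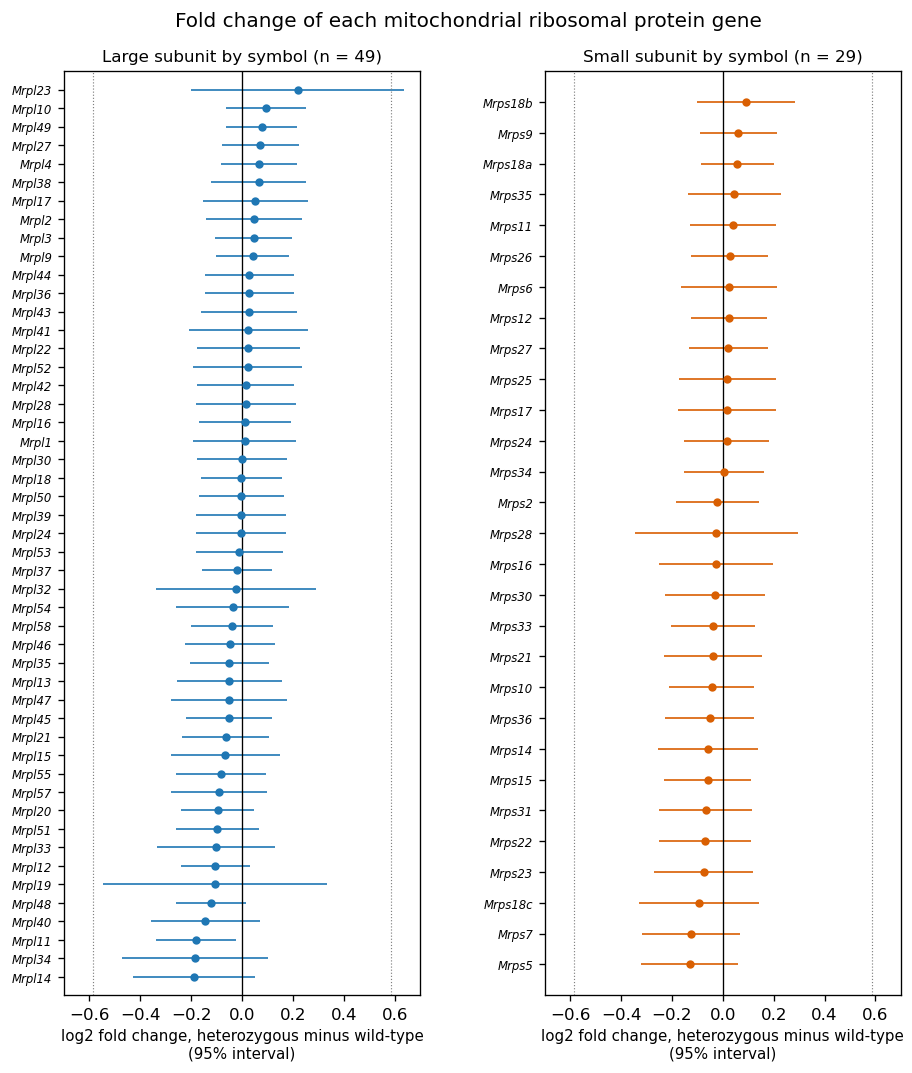
Log2 fold change (heterozygous minus wild-type) of each of the 49 large-subunit and 29 small-subunit genes with its 95% interval from limma, ordered by value; dotted lines mark 1.5-fold. The interval of Mrpl11 is the only 1 that excludes 0, and that of Mrpl23 the only 1 that reaches past a dotted line.

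Samples of the genotypes did not overlap for 3 genes lower in heterozygotes, Mrpl11, Mrpl12 and Mrpl20, which is 3.85% of the family against 5.3% of all genes tested. They did not overlap for 1 higher gene, Mrps11, which is 1.28% against 5.15%. In either direction these were 4 of the 78, where 10.5% of all genes tested had no overlap. Because these 4 genes are the members whose samples separated, a stretch of the promoter is shown for each, together with that of Mrps12, which lies between Mrps12 and the neighbouring gene Sars2. The sequences are from RefSeq (GRCm38.p6), on the strand of the gene, and hold the bases nearest the start, up to 200, that no GENCODE M21 exon covers. The stretch of Mrpl11 ends 159 bases before the RefSeq start, that of Mrpl12 24 and that of Mrps11 12 bases before it, because annotated exons reach that far. Capitals mark matches to the motifs described after them.
Mrpl11: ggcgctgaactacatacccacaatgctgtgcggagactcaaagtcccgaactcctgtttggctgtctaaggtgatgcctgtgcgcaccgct
Mrpl12: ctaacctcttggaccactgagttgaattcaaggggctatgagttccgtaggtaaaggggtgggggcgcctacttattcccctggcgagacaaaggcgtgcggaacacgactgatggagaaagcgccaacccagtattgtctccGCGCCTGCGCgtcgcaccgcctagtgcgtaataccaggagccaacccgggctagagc
Mrpl20: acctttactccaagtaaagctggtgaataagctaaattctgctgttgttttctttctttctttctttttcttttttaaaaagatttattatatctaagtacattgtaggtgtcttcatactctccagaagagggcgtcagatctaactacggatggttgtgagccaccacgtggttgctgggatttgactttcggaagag
Mrps11: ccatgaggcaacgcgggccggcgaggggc
Mrps12: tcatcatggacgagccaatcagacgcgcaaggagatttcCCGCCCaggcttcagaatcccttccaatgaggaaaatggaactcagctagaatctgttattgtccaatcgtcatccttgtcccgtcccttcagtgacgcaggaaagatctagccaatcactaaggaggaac
The stretches lie at chr19:4962056-4962146 (Mrpl11), chr11:120484413-120484612 (Mrpl12), chr4:155802678-155802877 (Mrpl20) and chr7:78783090-78783118 (Mrps11), all on the plus strand, and at chr7:28741822-28741991 on the minus strand (Mrps12).

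Promoters of the family were searched on both strands for the letters GCGCA, any base and GCGC (NRF1, a regulator of nuclear genes for mitochondrial proteins), CCGGAAG (the ETS family, which includes GABP), AAGATGG (YY1) and GGGCGG (SP1), from 250 bases before to 50 after the start. Matches of different motifs were allowed to overlap. RefSeq promoters were matched for 69 of the 78 genes, and a gene counted when any of its promoters held the letters. The NRF1 letters stood in 13 of 69 genes (18.8%, beside 5.19% of the 27025 genes with a promoter and 10.4% of those that were also tested here). The ETS letters stood in 26 (37.7%, beside 9.93% and 17.9%), the YY1 letters in 13 (18.8%, beside 7.28% and 7.94%) and the SP1 letters in 34 (49.3%, beside 38.2% and 66.7%). In the stretches printed, Mrpl12 holds the NRF1 letters from 81 bases before its start and Mrps12 the SP1 letters from 131 bases before. A match of letters is a description of the sequence and not a site. Median log2 fold changes of the genes with and without the letters were -0.0046 and -0.016 for NRF1, -0.019 and -0.0048 for ETS, 0.022 and -0.030 for YY1, and -0.022 and -0.0048 for SP1.

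Some of the genes share their promoter region with another gene. A protein-coding gene on the opposite strand, read away from the member, started within 1000 bases upstream of 18 of the 78 genes (23.1%, beside 9.17% of the 14653 coding genes tested). Mrps12, a protein of the decoding centre, starts 172 bases from Sars2, the mitochondrial seryl-tRNA synthetase, so that stretch separates genes for a ribosomal protein and for an enzyme that charges tRNA for the same ribosome. Their log2 fold changes were 0.025 for Mrps12 and 0.045 for Sars2. All 18 neighbours were tested, with a median of 0.034. The neighbour farthest below wild type was Cyb5rl, next to Mrpl37, at 164 normalized counts in the wild-type samples and 105 in the heterozygous ones (log2 fold change -0.65, adjusted p = 0.87 by limma), while the log2 fold change of Mrpl37 was -0.020. The groups overlapped for Cyb5rl. Those of Pnpla7, which starts 935 bases from Mrpl41, did not, at means of 541 in wild type and 668 in heterozygotes (log2 fold change 0.30, adjusted p = 0.90 by limma). The log2 fold change of Mrpl41 was 0.026. Groups also did not overlap for Mitd1, 66 bases from Mrpl30, at means of 203 in wild type and 219 in heterozygotes. They overlapped for the other neighbours, and 10.5% of all genes tested had no overlap. Mrps12, Mrpl37, Mrpl41, their neighbours and Mitd1 are named after their values were seen.

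Within the large subunit, Mrpl11 had the smallest p. It encodes the protein at the base of the flexible stalk that recruits translation factors. Its normalized counts were 907, 959 and 952 in the wild-type samples and 777, 844 and 866 in the heterozygous samples. The 3 heterozygous samples were all lower, and the group means were 939.6 ± 28.0 and 829 ± 46.2 (SD, n = 3 each). The log2 fold change was -0.18 ± 0.07 (SE), with a 95% interval of -0.34 to -0.025, an unadjusted p of 0.028 and an adjusted p of 0.95 by limma. Without wild-type sample 3 or without heterozygous sample 1, 0 members had an unadjusted p under 0.05. Mrpl11 lies on chromosome 19 from 4962147 to 4966999.

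The other stalk proteins lay on both sides of wild type. Mrpl12, the stalk protein that contacts the factors, was at 1386, 1395 and 1365 in the wild-type samples and 1240.4, 1269 and 1347 in the heterozygous ones. The heterozygous samples were again all lower, though sample 3 came close to the lowest wild-type value, and the log2 fold change was -0.11 ± 0.06 (SE; limma adjusted p = 0.95). Mrpl10, which anchors Mrpl12 to the ribosome, was at 1299, 1345 and 1169 in the wild-type samples and 1403, 1351 and 1313 in the heterozygous ones. Its groups overlapped, and its log2 fold change was 0.096 ± 0.070 (SE).

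Mrpl20, an RNA-binding protein of the large subunit, was at 1130.2, 1157 and 1096 in the wild-type samples and 1069, 1007 and 1089 in the heterozygous ones. The gap between the groups was small, 1089 against 1096, and the log2 fold change was -0.096 ± 0.064 (SE). Mrpl14, a protein of the interface between the subunits, was at 301, 306 and 270.3 in the wild-type samples and 245, 239.9 and 285 in the heterozygous ones. Heterozygous sample 3 lay above wild-type sample 3, so the groups overlapped, and the log2 fold change was -0.19 ± 0.11 (SE). Log2 fold changes were -0.14 ± 0.10 (SE) for Mrpl40 and -0.12 ± 0.06 (SE) for Mrpl48, both proteins found only in mitochondrial ribosomes. For both, at least 1 heterozygous sample lay above 1 wild-type sample.

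Mrpl49, a protein specific to mitochondria, was at 1157, 1075 and 1069 in the wild-type samples and 1157, 1175 and 1148 in the heterozygous ones (log2 fold change 0.077 ± 0.063, SE). Mrpl27, a protein near the peptidyl transferase centre, and Mrpl4, near the tunnel through which the new chain leaves, were at log2 fold changes of 0.072 ± 0.068 and 0.066 ± 0.067 (SE). Mrpl30 was closest to wild type in the large subunit, at 1017 ± 23.9 and 1019 ± 94.0 normalized counts (SD, n = 3 each), with a 95% interval of the log2 fold change of -0.18 to 0.18.

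Mrpl23, a protein at the exit of the tunnel, was the gene farthest from wild type, with a wide interval. Its normalized counts were 115, 192 and 154 in the wild-type samples and 161, 205 and 163 in the heterozygous ones, and the log2 fold change was 0.22 ± 0.19 (SE; 95% interval -0.20 to 0.64). Wild-type sample 1 was low and the groups overlapped, and without that sample the log2 fold change was 0.025. The table also lists Mrpl23-ps1, a processed pseudogene on chromosome 2, whose transcript matched that of Mrpl23 over 540 bases at 100% identity. The pseudogene held more of the signal than the gene, at 423, 341 and 356 in the wild-type samples and 379, 396 and 405 in the heterozygous ones, or 63.9% to 78.7% of the sum in each sample. Where Mrpl23 was lowest, in wild-type sample 1, the pseudogene was highest. The sums were 538, 533 and 509.7 in the wild-type samples and 540.05, 602 and 568 in the heterozygous samples. The log2 ratio of the group means was 0.11 for the sum and 0.20 for Mrpl23 alone. Because the transcripts are the same over most of their length, the split of reads between gene and pseudogene is uncertain.

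**Figure D2:**
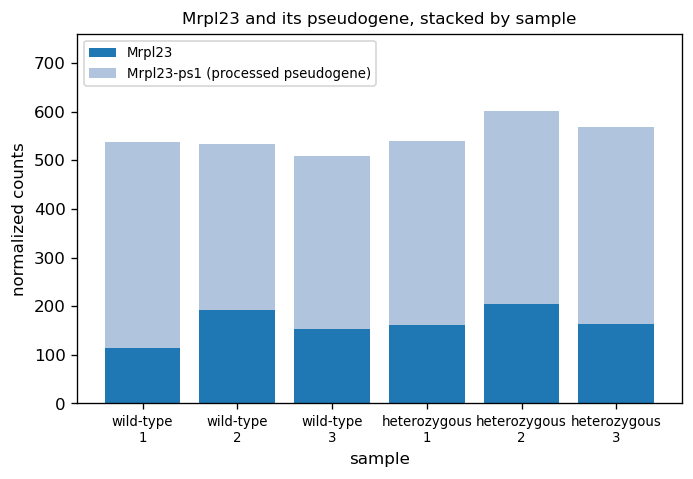
Normalized counts of Mrpl23 (dark blue) and of its processed pseudogene Mrpl23-ps1 (light blue), stacked, in each of the 6 samples. The sums lie between 509.7 and 602, while Mrpl23 alone runs from 115 to 205.

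In the small subunit, the gene farthest from wild type was Mrps5, a protein beside the channel through which mRNA enters. It was at 1322, 1658 and 1531 in the wild-type samples and 1424, 1318 and 1363 in the heterozygous ones. Wild-type sample 1 lay among the heterozygous samples, and the log2 fold change was -0.13 ± 0.08 (SE; 95% interval -0.32 to 0.059). Mrps34, a protein specific to mitochondria, was closest to wild type at 1080.1 ± 75.7 and 1082 ± 20.5 (SD, n = 3 each), with an interval of -0.15 to 0.16.

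Mrps11, named after its values were seen, was the 1 gene with all heterozygous samples higher. It was at 445, 433 and 445 in the wild-type samples and 453, 447 and 462 in the heterozygous ones. The lowest heterozygous value, 446.8, lay just above the highest wild-type value, 445.1, and the log2 fold change was 0.041 ± 0.076 (SE). Its within-genotype SD, 0.023 on the log2 scale, was the lowest of the family. Mrps11 and Mrpl46, a large-subunit gene, lie head to head on chromosome 7 with exons that overlap on opposite strands, and the log2 fold change of Mrpl46 was -0.048 ± 0.079 (SE).

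The paralogues Mrps18a, Mrps18b and Mrps18c are related to 1 bacterial ribosomal protein and occupy different places, Mrps18a in the large and the others in the small subunit. Wild-type and heterozygous means were 1094 ± 41.8 and 1138 ± 38.1 for Mrps18a, 627 ± 29.1 and 670.1 ± 60.6 for Mrps18b, and 333 ± 18.8 and 313 ± 33.9 for Mrps18c (SD, n = 3 each). The log2 fold changes of the trio were 0.057 ± 0.064, 0.092 ± 0.086 and -0.093 ± 0.106 (SE) in that order, and the groups overlapped in each. Of the other genes placed differently by structure, Mrps30 and Mrps36 had log2 fold changes of -0.032 ± 0.088 and -0.052 ± 0.078 (SE).

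Genes were compared with each other only as normalized counts per kb, divided by the median length of their protein-coding transcripts in GENCODE M21. On this scale the family spanned 97.4 ± 12.4 for Mrpl32 to 2662 ± 167 for Mrpl48 (SD, n = 6 samples of both genotypes), and the median was 702 in the large and 584 in the small subunit by symbol. After Mrpl48 came Mrpl20 at 2209.6 ± 105, Mrps21 at 2187 ± 161, Mrps33 at 2080.2 ± 130 and Mrpl42 at 1694 ± 128 per kb (SD, n = 6). The ranges of mean ± SD overlapped among Mrpl20, Mrps21 and Mrps33, while Mrpl48 lay above and Mrpl42 below them. Next among the Mrps genes, Mrps18a was at 1483 ± 57.4 per kb, and Mrps23 at 1481 ± 121 (SD, n = 6) lay within its range. The place of Mrpl48 rests on the length used, since it ranked 38 of 78 when divided by its longest transcript, and its exons overlap those of Rab6a on the opposite strand. Of the 10 highest genes, 6 were among the 10 highest by the longest transcript.

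At the low end stood Mrpl32, whose protein is cut by a quality-control protease before assembly, then Mrpl1 at 119 ± 6.91 and Mrpl47 at 126 ± 10.4 per kb among the Mrpl genes, and Mrps16 at 147 ± 11.3, Mrps30 at 151 ± 9.29 and Mrps25 at 166 ± 11.8 per kb among the Mrps genes (SD, n = 6). The ranges of mean ± SD overlapped between neighbours in this order, except between Mrpl32 and Mrpl1. The low order also depended on the length used. Divided by the longest transcript, Mrpl32 was again lowest, followed by Mrpl17 at 102 per kb, which ranked 18 of 78 by the median length, and Mrps35 at 110 per kb. The 6 lowest genes by median length have long annotated transcripts, with medians of 2572 to 6073 bases, while those of the high genes are 405 to 865 bases. Samples of the genotypes overlapped in each of these 6, with log2 fold changes of -0.023 (Mrpl32), 0.010 (Mrpl1), -0.050 (Mrpl47), -0.027 (Mrps16) and 0.018 (Mrps25), and -0.038, -0.038 and 0.015 for the high genes Mrps21, Mrps33 and Mrpl42.

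**Figure D3:**
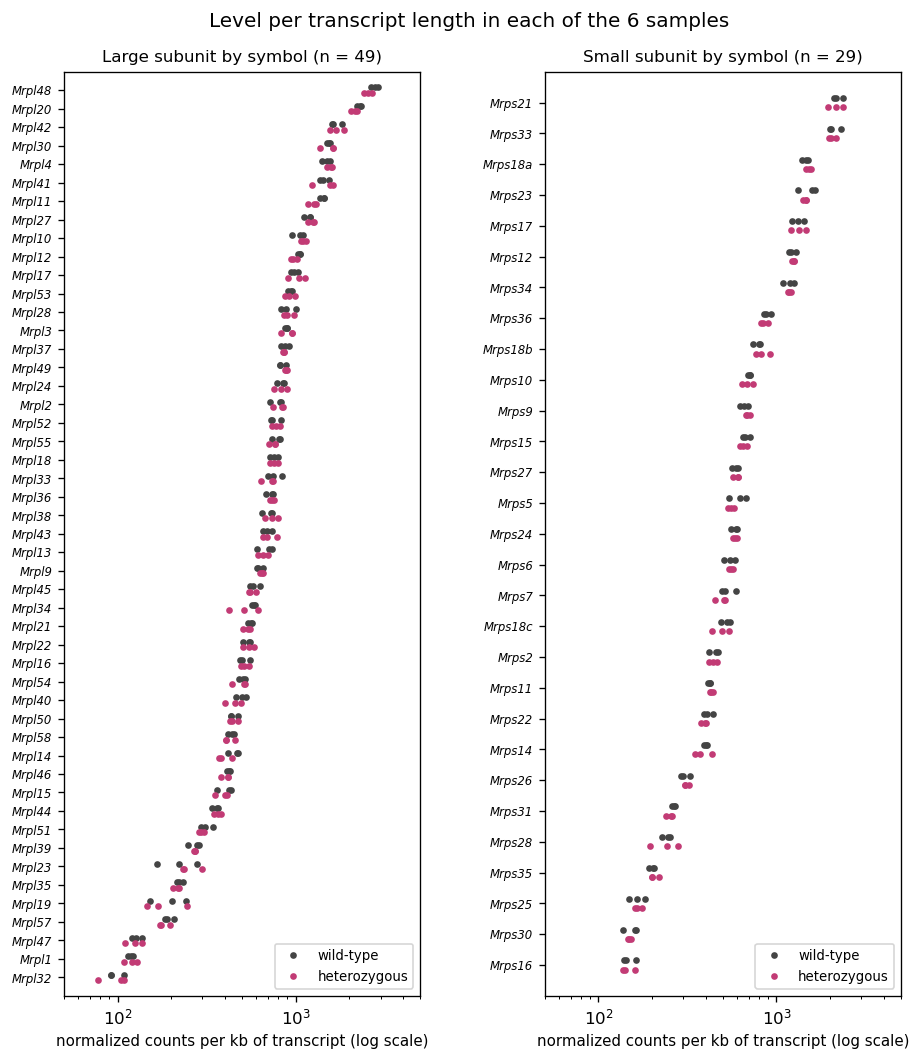
Normalized counts per kb of transcript (log axis) of each gene in each of the 6 samples, ordered within the large and the small subunit; grey points are wild-type and magenta points heterozygous samples. The order from Mrpl48 (2662) to Mrpl32 (97.4) is wide, and the points of the genotypes overlap in all but 4 genes.

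The large and the small subunit were compared within each sample, as the mean over genes of the log2 value minus the gene's mean over the 6 samples. The large subunit by symbol was at 0.022, 0.039 and -0.030 in wild-type samples 1, 2 and 3, and at -0.062, 0.011 and 0.019 in heterozygous samples 1, 2 and 3. The small subunit was at 0.0013, 0.030 and -0.0050, and at -0.045, -0.0011 and 0.020. Both subunits were highest in wild-type sample 2 and lowest in heterozygous sample 1. The large-minus-small difference was 0.021, 0.0094 and -0.025 in the wild-type samples and -0.017, 0.012 and -0.00069 in the heterozygous ones. Its mean was 0.0019 ± 0.024 in the wild-type samples and -0.0019 ± 0.014 in the heterozygous ones (SD, n = 3 each), so the genotypes differed by -0.0037, less than the spread between replicates, and the samples overlapped. No p is given for these scores, since the members were chosen with results of these data known. With Mrps30 and Mrps18a counted in the large subunit and Mrps36 in neither, the difference between genotypes was -0.0014.

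**Figure D4:**
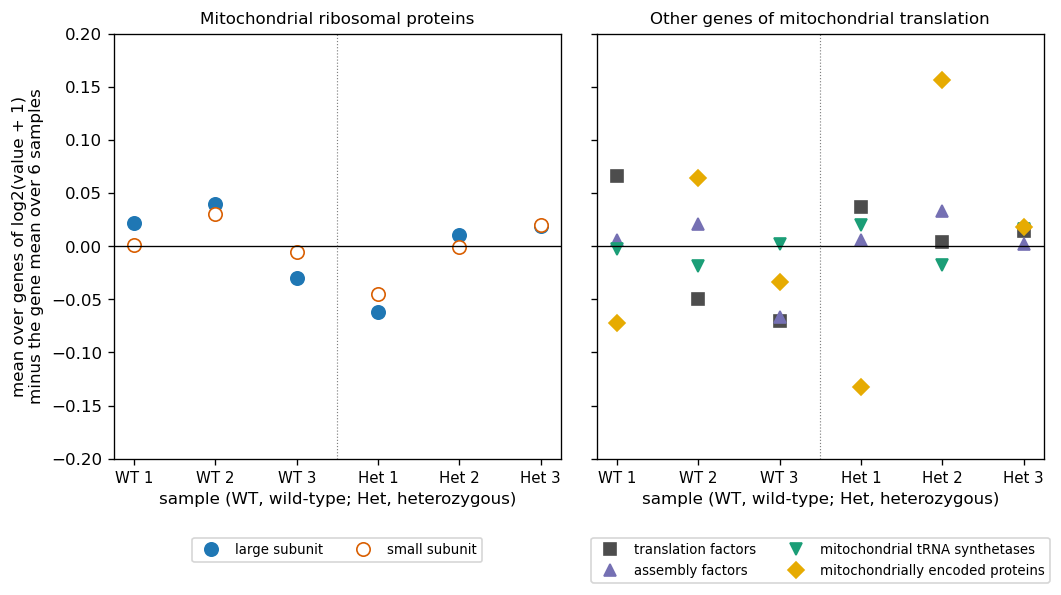
Mean over genes of log2(value + 1) minus each gene's mean over the 6 samples, for the subunits of the mitochondrial ribosome by symbol (left) and for other gene lists of mitochondrial translation (right); each point is 1 sample. Both subunits are highest in wild-type sample 2 and lowest in heterozygous sample 1, at -0.062 and -0.045.

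Heterozygous sample 1 held the lowest value of 29 of the 78 genes (37.2%, beside 18.9% of all genes tested), and wild-type sample 2 the highest value of 21 (26.9%, beside 16.1%). By mean deviation, wild-type sample 2 is also the highest in oligodendrocyte (0.36), striatal (0.38) and microglial markers (0.14). It is the lowest in GABAergic markers (-0.13). Heterozygous sample 1 is the highest in astrocyte (0.18), meningeal (0.16), thalamic (0.076) and GABAergic markers (0.063). It is the lowest in excitatory (-0.031) and striatal markers (-0.13). By summed level, thalamic markers were instead highest in wild-type sample 3 (5440). Excitatory markers were then lowest in heterozygous sample 3 (196526) and striatal markers in heterozygous sample 2 (3149). The part of these cells in the family's levels was not tested. Without heterozygous sample 1, the median log2 fold change of the family was -0.0035, and without wild-type sample 2 it was -0.0060. Genes with a bacterial counterpart by the common naming of ribosomal proteins (46) were at -0.071 in heterozygous sample 1. Those counted as specific to mitochondria (31) were at -0.033. The median log2 fold changes of these groups between genotypes were -0.022 and -0.0046. The split follows names and not descent, since Mrps18a and Mrps18b were counted as specific to mitochondria.

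Other genes of mitochondrial translation were read from lists, and 0 of their members passed an adjusted p of 0.05 by limma in either direction. Beside the counts in these lists, 50.8% of all genes tested were above wild type, and 10.5% had no overlap between the groups. Of 5 mitoribosomal proteins with other symbols, 1 was above and 4 below wild type, with Chchd1 at -0.11 ± 0.11 and Gadd45gip1 at -0.042 ± 0.075 (log2 fold change ± SE). Chchd1 was at 428, 429 and 432 in the wild-type samples and 339, 414 and 449.6 in the heterozygous ones, so that heterozygous sample 1 was the low one here too. Of 15 translation factors tested, 10 were above wild type, with a median of 0.048. Guf1, the mitochondrial back-translocase, was at 0.15 ± 0.08 and Gfm2, the elongation factor that recycles ribosomes, at 0.11 ± 0.07 (log2 fold change ± SE).

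Of 27 assembly factors, 17 were above wild type, with a median of 0.029. Mtg1, a GTPase that acts in assembly of the large subunit, was at 580.1, 508 and 558 in the wild-type samples and 646, 669 and 574 in the heterozygous ones (log2 fold change 0.20 ± 0.09, SE). Rpusd3, a pseudouridine synthase family member needed for the large-subunit RNA, was at 218, 217 and 162 in the wild-type samples and 229.9, 225 and 249.9 in the heterozygous ones (log2 fold change 0.25 ± 0.13, SE). In Mtg1 the groups overlapped and in Rpusd3 they did not, and the adjusted p was 0.95 for both by limma.

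Of 20 mitochondrial tRNA synthetases and related enzymes, 10 were above and 10 below wild type. Vars2, the valyl-tRNA synthetase, was at 805, 978 and 883 in the wild-type samples and 1109.6, 1000.4 and 1149.7 in the heterozygous ones. All heterozygous samples were higher, and the log2 fold change was 0.29 ± 0.09 (SE; unadjusted p = 0.0081, adjusted p = 0.80 by limma). Yars2, the tyrosyl-tRNA synthetase, was at -0.13 ± 0.08 (log2 fold change ± SE), with no overlap between the groups.

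Of 8 genes of mitochondrial transcription, 5 were above and 3 below wild type, with a median of 0.017 and a range of -0.32 to 0.28 on the log2 scale. The lowest, Tfam, had the smallest p of all the genes in these lists. TFAM packages mitochondrial DNA and starts its transcription, from which the ribosomal RNAs of the organelle also come. Tfam was at 1036, 1034 and 1221 in the wild-type samples and 833, 926 and 869.6 in the heterozygous ones. The 3 heterozygous samples were all lower, at 80.1% of wild type, and the log2 fold change was -0.32 ± 0.08 (SE; unadjusted p = 0.0034, adjusted p = 0.73 by limma). Tfb2m, its partner at the promoter, was at -0.18 ± 0.11 (log2 fold change ± SE), with overlapping groups.

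Of the 13 mitochondrially encoded protein genes, whose mRNAs the ribosome reads, 9 had a higher mean in heterozygotes, and the median over the list was 0.059 on the log2 scale. mt-Co1, a core subunit of cytochrome c oxidase, was at 905009, 979638 and 954523 in the wild-type samples and 967964, 1067308 and 1023721 in the heterozygous ones (log2 fold change 0.11 ± 0.07, SE). mt-Nd5, a subunit of complex I, was at 0.081 ± 0.057 (log2 fold change ± SE), and the groups overlapped in both genes. The mean of these 13 genes ranged from -0.13 in heterozygous sample 1 to 0.16 in heterozygous sample 2, beside -0.056 to 0.036 for the 78 ribosomal protein genes.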

How the data were processed

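Libraries of prefrontal cortex RNA were made with a TruSeq Stranded mRNA kit, per the labels' protocols. The submitters' processing notes list Salmon 0.11.2, R 3.6.0, DESeq2 1.19.11 and GRCm38 with no role for any of them, and no annotation release. What was deposited is a signal for each gene, read estimates scaled between samples by the authors, and no raw counts. Within 0.1 reads of whole numbers lay 77.2% to 84.5% of the lowest values but only 21.0% to 41.5% of values of 10 to 20 reads, so no count model was used. On log2(value + 1), limma 3.58.1 (trend, genotype as the only term, R 4.3.3) was run over 15151 genes with a mean of at least 10, with Benjamini-Hochberg adjustment. Fold changes on this scale are too small for low genes. The procedure was first tested on simulated counts with planted changes. These held no differences between samples beyond random spread, so that test does not cover such differences. Symbols, positions and transcript lengths are from GENCODE M21 (18122 of 18160 identifiers matched), and near-identical transcripts were sought with blastn 2.17.0 (at least 95% identity over 150 bases).

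The members and gene lists were chosen with earlier results of these data known. Named by rule were the 6 genes with the smallest p in each direction, the 3 highest and 3 lowest per kb and the genes closest to and farthest from wild type in each subunit, the Mrps18 paralogues, Mrps30 and Mrps36, and 2 genes per pathway list. Other names (Mrps11, Mrpl46, Mrps12, Mrpl37, Mrpl41, Mrpl17, Mrps23, Mrps35, Mrpl19, Mrpl22, Mrps7, neighbours and copies) were chosen after their values were seen. Mtrfr was not matched in its list, and Mtres1 was found as 1700021F05Rik. The alternatives were TMM rescaling, other variance models, filters and pseudocounts, a threshold of 0.1, GC and length correction, the sample number as a block, other subunit assignments and summaries, and leaving out each sample.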

Additional observations from a re-analysis of the deposited data

How the results depend on the processing

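The count of 0 members past an adjusted p of 0.05 held under each of the 17 alternatives, among them a threshold of 0.1, and the smallest adjusted p of any member lay between 0.44 and 0.9997. The count at an unadjusted p under 0.05 was 1, was 2 with the sample number as a block and with GC and length correction, and ranged from 0 (without wild-type sample 3 or heterozygous sample 1) to 2 (leaving out any of the others). The median log2 fold change of the family was -0.018 with GC and length correction and ranged from -0.0295 to -0.00087 over the samples left out. The large-minus-small difference ranged from -0.017 to 0.0058 over these, and was -0.014 with medians over genes. Deviations of same-numbered samples correlated at 0.13 (number 1), 0.12 (number 2) and -0.0052 (number 3). For numbers 1 and 2 these were the highest correlations of either sample with the other genotype. Wild-type sample 3 instead correlated best with heterozygous sample 2, at 0.046. Whether same-numbered samples form pairs cannot be settled from these values. With the replicate block, 0 members passed, the median stayed -0.016, the large-minus-small difference -0.0037, and the smallest adjusted p was 0.47, while genes at an unadjusted p under 0.05 rose from 768 to 1363 over the whole table. The fold change of Mrpl1 turned to -0.0042 with GC and length correction, with or without the block. Cyfip2 lost its call without the variance trend (adjusted p = 0.15 by limma). Leaving out single samples gave log2 fold changes on both sides of 0 for 19 of the genes whose fold changes are given: Mrpl1 (-0.047 to 0.074), Mrpl19 (-0.32 to 0.053), Mrpl22 (-0.026 to 0.075), Mrpl30 (-0.042 to 0.079), Mrpl32 (-0.12 to 0.13), Mrpl37 (-0.052 to 0.014), Mrpl41 (-0.051 to 0.15), Mrpl42 (-0.053 to 0.079), Mrpl47 (-0.12 to 0.036), Mrps12 (-0.0012 to 0.063), Mrps16 (-0.095 to 0.041), Mrps21 (-0.11 to 0.029), Mrps25 (-0.057 to 0.091), Mrps30 (-0.11 to 0.0082), Mrps33 (-0.078 to 0.028), Mrps34 (-0.050 to 0.050), Chchd1 (-0.20 to 0.0062), Sars2 (-0.017 to 0.15) and Gadd45gip1 (-0.067 to 0.0082). The median of the large subunit was 0.00039 without wild-type sample 1 and that of the small subunit 0.0037 without wild-type sample 2. The cause was not tested. With 3 samples a group, changes smaller than the intervals given cannot be told from none.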

Other observations

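Mrpl19 had the largest within-genotype SD of the family (0.36 on the log2 scale), at 1209, 1015 and 766 normalized counts in the wild-type samples and 729, 843 and 1225 in the heterozygous ones. The highest and lowest samples differed by 1.68-fold and belonged to the same genotype, heterozygous samples 3 and 1. Its exons overlap those of Gcfc2 on the opposite strand, and its log2 fold change was -0.11 ± 0.20 (SE). Its transcript also shared stretches of 159 to 177 bases, at 95% identity or more, with other genes in the table, among them Ilf2 and Npepps. The part of these matches in its spread was not tested.

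Exons of 17 of the 78 genes overlapped exons of another gene on the opposite strand, and those of 4 genes overlapped on the same strand (Mrpl53 with Gm42688, Mrps24 with Urgcp, Mrps34 with Nme3 and Mrps6 with Slc5a3). The sources used here do not say whether strand was used in counting. Matches of at least 150 bases at 95% identity elsewhere in the table were found for 8 of the 78 genes. Besides Mrpl23, a processed pseudogene in the table matched Mrpl27 (Gm6304, 98.9% identity over 447 bases), with a mean of 0.94 normalized counts beside 912 for Mrpl27.

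The family was spread over 17 chromosomes. Chromosome 11, which holds Cyfip2, carried 11 of the genes, and the nearest of them, Mrpl22, lay 11.9 Mb from Cyfip2. The 11 log2 fold changes ran from -0.13 (Mrps7) to 0.096 (Mrpl10).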
